A study of Vigna radiata with 9 samples.

Results

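The enzymes that make and inactivate brassinosteroids were followed in mung bean (Vigna radiata) leaf as a family of 14 of the 26966 genes in the deposited count table. The members were chosen by annotation: every gene that the table places in the brassinosteroid biosynthesis pathway, or that it describes as a cytochrome P450 of the CYP90 family or the CYP85A subfamily. The pathway assignment alone picked all 14, and the P450 descriptions picked 7 of these again. Of the 14, 9 had enough counts for a test and 5 did not, 1 of the latter having no count in any library. The label was checked against the Gene Ontology terms in the table, which name brassinosteroids for 10 members. The other 4 were the 3 CYP85A genes and LOC106774369, which is described as a flavonoid 3'-monooxygenase with flavonoid terms. LOC106774369 belongs to the family by the pathway assignment only, and is given apart at the end.

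Brassinosteroids are growth-promoting steroid hormones of plants, made from the membrane sterol campesterol by a reductase, DET2, and a series of cytochrome P450 enzymes. The side chain is hydroxylated by CYP90B1 (DWF4 in Arabidopsis), regarded as the rate-limiting entry step, and by CYP90C1 and CYP90D1, the ring is oxidised by CYP90A1 (CPD in Arabidopsis), and CYP85A enzymes carry out the late oxidation that gives castasterone. CYP734A1 (BAS1 in Arabidopsis) hydroxylates the finished hormone and thereby inactivates it, and in Arabidopsis active hormone lowers transcripts of several synthesis genes through the transcription factor BZR1 and raises those of BAS1.

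Leaf RNA came from the cultivar Lvfeng No.2, labelled as wild type, in 3 groups of 3 libraries, each pot being a separate biological replicate (n = 3). All plants were sprayed when flowering began. CK plants received water and stayed in the natural environment. LT plants received water and, 36 h after the spray, were moved to a phytotron at 15 °C for 4 days. LT+S plants received 50 mg/L uniconazole and the same cold. Uniconazole is a triazole growth retardant known to inhibit ent-kaurene oxidase of gibberellin synthesis and the abscisic acid 8'-hydroxylases, and brassinazole, a triazole of related structure, inhibits CYP90B1 in Arabidopsis. The cold was given in a phytotron and CK grew outside it, so temperature and growth site cannot be told apart. The treatment labels of the 3 LT+S libraries carry 3 different, consecutive code numbers for uniconazole, 1 of which is the code in the study's methods, and the libraries were taken as replicates of 1 treatment from their titles. The study also kept uniconazole-sprayed plants in the natural environment, but its methods name only CK, LT and LT+S leaves for sequencing. An effect of uniconazole without cold therefore cannot be assessed, and the comparison for uniconazole is LT+S versus LT. Because LT and LT+S were both set against the same CK libraries, the comparisons with CK are not independent of each other.

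The libraries held 19561896 to 21617340 counts. Levels are given as CPM, counts relative to library size, after scaling by trimmed mean of M values, and their errors are SDs over 3 libraries. The scaling factors were 0.781 to 0.804 in CK and 1.05 to 1.17 in the cold groups, and CK libraries were dominated more by their 10 top genes, which held 13.5% to 13.8% of reads against 4.43% to 7.17% in the cold groups. Summed leaf mesophyll markers, 20 genes of Rubisco small subunits and chlorophyll-binding proteins, were high in every library but lower in the cold. They summed to 59975 CPM or more in each CK library, against 6725 to 15357 CPM among LT pots and 15862 to 18277 CPM among LT+S pots. The CK pots differed among themselves: CK 1 was the lowest CK library for 8 of the 9 tested members and CK 3 the highest for 8. Among LT+S pots, LT+S 1 was the lowest for 7 of the 9, while in LT each pot was the lowest for 3. The 18 xylem and vascular markers followed the order of the members in CK, at 55.6, 279 and 472 CPM in CK 1 to 3. In LT+S they did not, at 261, 236 and 199.9 CPM in LT+S 1 to 3. LT pots spanned 139 to 366 CPM, and 2 of the 18 had no count in any library. The 15 phloem markers summed to 13.2, 60.6 and 107 CPM in CK 1 to 3, to 33.7 to 74.5 CPM among LT pots and to 71.5 to 122 CPM among LT+S pots. Markers of stomata (4 genes, only 1 with enough counts for a test and 1 without a count) summed to 27.8 to 50.5 CPM among CK pots and 53.3 CPM or more in each chilled pot. The summed level of root and nodule markers (8 genes, 3 tested and 2 without a count) went from at least 422 CPM in each CK pot to 109 to 164 CPM in the chilled pots. The 3 tested did not move together: their log2 fold changes ran from -2.14 to 3.97 in LT versus CK and from -1.91 to 4.51 in LT+S versus CK. Dividing-cell markers (3 genes) stayed within 54.3 to 67.9 CPM throughout, and pollen and flower markers (5 genes, 1 tested and 3 without a count) reached at most 3.95 CPM. The part of cell composition in the results below was not tested, and in whole leaf fewer cells of a type and less RNA per cell cannot be told apart.

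**Figure D1:**
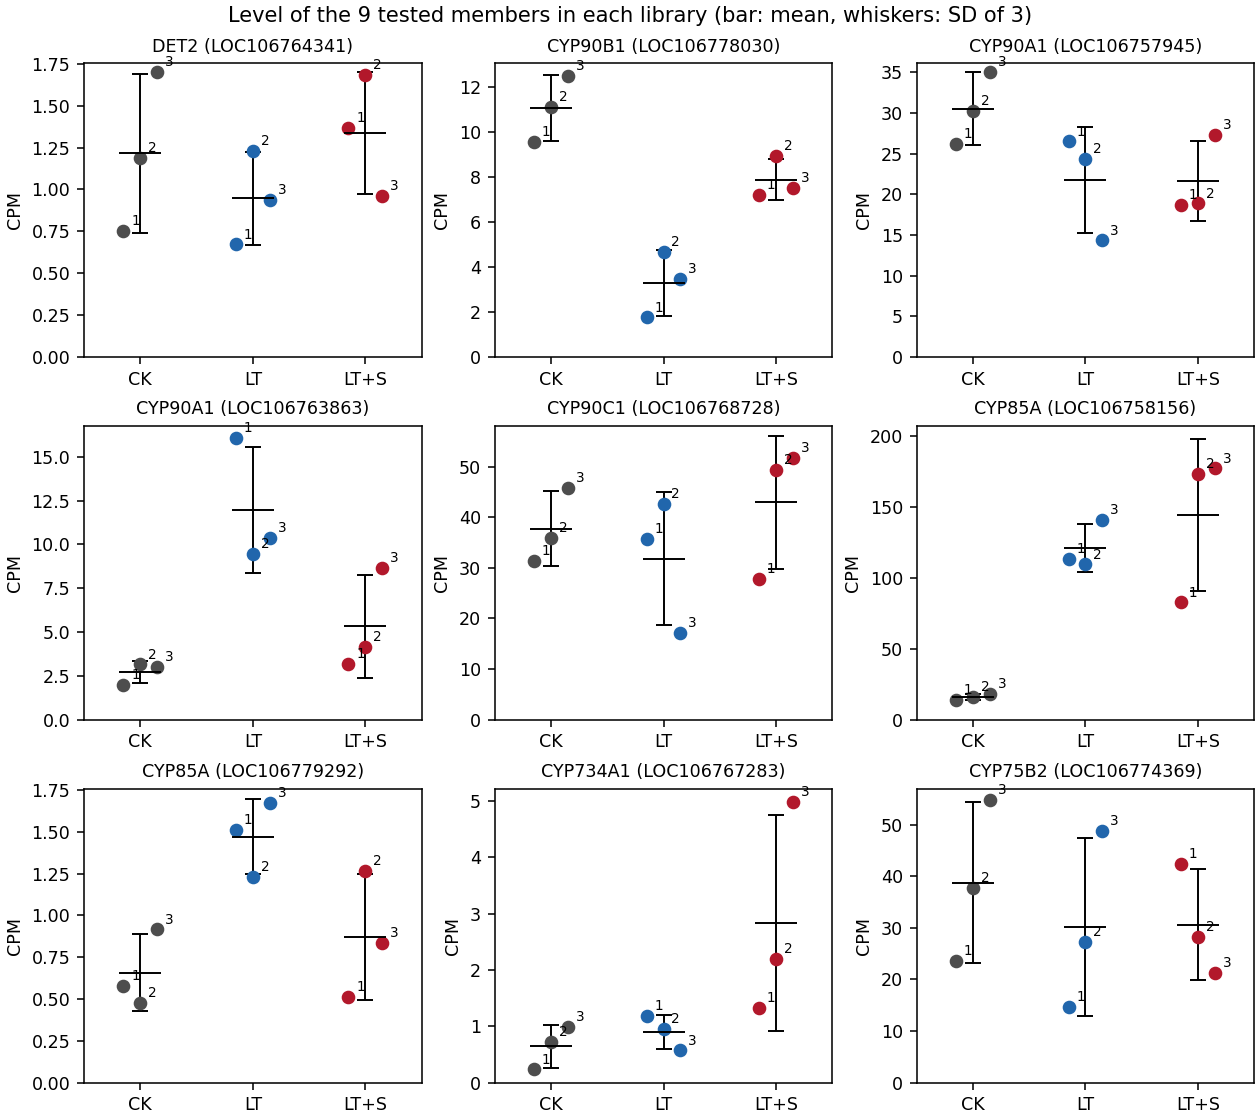
Level of each of the 9 tested members, in CPM on linear axes that start at 0, in the 3 libraries of CK, LT and LT+S. Points are libraries with their replicate number, the wide bars are means and the whiskers SDs of 3 libraries. LOC106758156 stood at 13.99 to 18.5 CPM in CK and at 82.8 CPM or more in every chilled library.

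Under cold without uniconazole, the family did not move as one. The late oxidase CYP85A rose in both of its tested genes, 1 of the 2 tested CYP90A1 genes rose, and the entry enzyme CYP90B1 fell in its tested gene. Of the CYP85A genes, LOC106779292 had low counts and lost its call in 7 of 16 alternative fits. Of the 9 tested members, 3 were higher and 1 was lower in LT than in CK by edgeR's quasi-likelihood test at an adjusted p below 0.05, where 22.8% of all 19304 tested genes were higher and 23.7% lower. Under a looser rule, more than 2-fold at an unadjusted p below 0.05, the counts were again 3 and 1, and 11.8% of all genes passed it upwards and 13.4% downwards. The median log2 fold change was -0.24 over the members and 0.01 over all genes, with 4 members above and 5 below 0.

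Under cold with uniconazole, 2 members were higher than in CK and 0 were lower by the same edgeR test, where 19.7% of all genes were higher and 21.9% lower. These were the main CYP85A gene and the inactivating enzyme CYP734A1. Before adjustment, 3 were higher and 0 lower at p below 0.05 (24.6% and 25.6% of all genes), and of these 2 and 0 exceeded 2-fold (10.8% and 11.6%). With 9 libraries, DESeq2 and limma-voom also called 0 lower, while edgeR on the 6 libraries of the comparison called 1, CYP90B1 (log2 -0.50, adjusted p = 0.0468). The median log2 fold change was 0.19 over the members and 0.01 over all genes.

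Between the chilled groups, 0 members were higher and 0 lower in LT+S than in LT by edgeR at an adjusted p below 0.05, where the same test called 0.0104% of all genes higher and 0.00518% lower. Before adjustment, at p below 0.05, 2 members were higher (CYP90B1 and CYP734A1) and 1 was lower (a CYP90A1 gene), against 3.73% and 3.34% of all genes. All 3 also exceeded 2-fold, against 1.47% and 0.995% of all genes. DESeq2, run as an alternative, called 1 member higher, CYP90B1, and 0 lower at an adjusted p below 0.05, against 0.651% and 0.577% of the 18898 genes to which it gave an adjusted p, and limma-voom called 0 and 0. The median log2 fold change was 0.25 over the members and -0.01 over all genes. Phloem markers differed between the same groups, with a higher value in LT+S for 11 of 13 tested and a median of 0.79, and 0 of the 13 passed the test (1 higher and 0 lower before adjustment at p below 0.05). Their part in the members' differences was not tested.

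**Figure D2:**
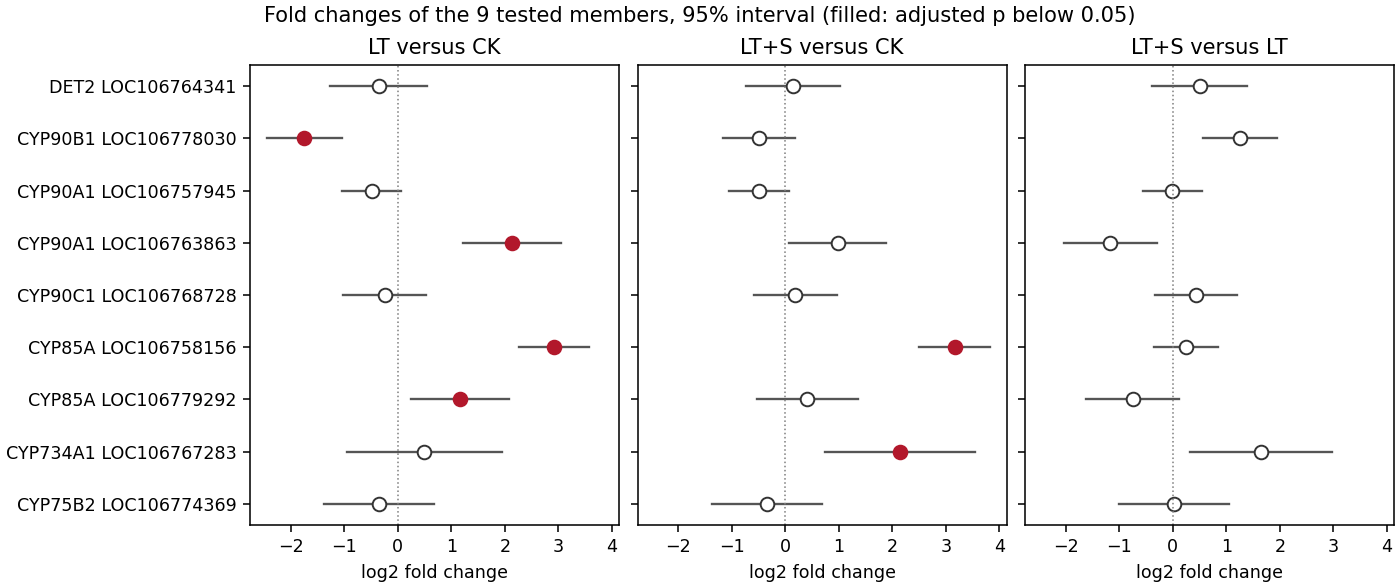
Log2 fold change (points) and 95% interval (lines) of the 9 tested members in LT versus CK, LT+S versus CK and LT+S versus LT, from the edgeR fit of all 9 libraries, with filled points at an adjusted p below 0.05. The filled points are CYP90B1 and 3 others in LT versus CK, LOC106758156 and LOC106767283 in LT+S versus CK, and none in LT+S versus LT.

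DET2, the steroid reductase that prepares campesterol for the brassinosteroid branch, was represented by LOC106764341 (Vradiata_ver6 chromosome 6, 24947187 to 24948292). It stood at 0.755, 1.19 and 1.70 CPM in CK, at 0.672, 1.23 and 0.937 CPM in LT, and at 1.37, 1.69 and 0.962 CPM in LT+S. These are 13 to 40 counts per library, and the groups overlapped in all comparisons. The log2 fold change was -0.36 in LT versus CK (95% interval -1.26 to 0.55) and 0.14 in LT+S versus CK (-0.74 to 1.03), and neither passed the test (adjusted p = 0.490 and 0.794, edgeR). The table describes 2 further genes as DET2 that it does not place in the pathway, and these were looked up by name after the table had been opened. LOC106763737, one of them, fell from 28.7 ± 6.76 CPM in CK to 11.7 ± 1.22 CPM in LT (SD, n = 3), a log2 change of -1.29 (edgeR adjusted p = 0.000643), and to 13.02 ± 1.64 CPM in LT+S, a log2 change of -1.14 (adjusted p = 0.00142). The other, LOC106767496, was at 0.463, 0.552 and 0.730 CPM on average in CK, LT and LT+S and passed no test.

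CYP90B1, the side-chain hydroxylase at the entry of the pathway, was the only tested member called lower than in CK by the edgeR fit of all 9 libraries. The call was made in LT and not in LT+S. LOC106778030 (chromosome 11, 5500324 to 5504198) was at 9.58, 11.1 and 12.5 CPM in CK, at 1.77, 4.69 and 3.46 CPM in LT, and at 7.22, 8.94 and 7.53 CPM in LT+S. The groups did not overlap in any comparison: every LT library lay below every LT+S library, and these below every CK library. Over all 19304 tested genes, 10578 did not overlap in LT versus CK, 10743 in LT+S versus CK and 2725 in LT+S versus LT. Among the 9 tested members these were 4, 4 and 3, and the same background applies to separations of levels given below. It fell 3.35-fold in LT versus CK, a log2 change of -1.74 (SE 0.31, 95% interval -2.44 to -1.04, edgeR adjusted p = 0.00191). In LT+S versus CK the log2 fold change was -0.49 (SE 0.30, interval -1.16 to 0.19, adjusted p = 0.219). Between the chilled groups the level with uniconazole was 2.39-fold that without, a log2 difference of 1.26 (SE 0.31, interval 0.56 to 1.95). That difference had an unadjusted p of 0.00268 and an adjusted p of 0.319 in edgeR, and an adjusted p of 0.0161 in DESeq2, so it was called by one tool and not by the other.

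The 2nd CYP90B1 gene, LOC106765911 (chromosome 7, 1170292 to 1174004), was close to absent and was not tested. It had 0 counts in all 3 CK libraries, 1, 1 and 5 counts in LT, and 5, 4 and 4 counts in LT+S. Against a floor of 3 counts over the CK group (0.0609 CPM), its summed level in LT+S was 3.01 times the floor. That ratio was 2.76 or more with any 1 LT+S library left out. The floor allows for counting error in CK only, and the counting error of the few LT and LT+S counts is not included. In LT the ratio of 1.64 rested on LT 3: without it the level was 0.718 of the floor, so no difference from CK was detectable. In a fit without the filter on low counts, its adjusted p in edgeR was 0.0615 in LT versus CK and 0.0263 in LT+S versus CK.

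CYP90A1, the ring oxidase known as CPD in Arabidopsis, was measured in 2 genes, of which 1 rose in the cold. LOC106757945 (chromosome 3, 12925786 to 12931232), the copy with most of the counts, was at 26.2, 30.3 and 35.1 CPM in CK, at 26.5, 24.4 and 14.3 CPM in LT, and at 18.7, 18.9 and 27.3 CPM in LT+S. The groups overlapped, and the log2 fold changes of -0.49 in LT versus CK (95% interval -1.05 to 0.07) and -0.50 in LT+S versus CK (-1.05 to 0.06) did not pass the test (adjusted p = 0.132 and 0.136, edgeR). LT+S and LT differed by -0.01 (-0.56 to 0.55).

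LOC106763863 (chromosome 6, 5371825 to 5382667), the other CYP90A1 gene, was at 1.97, 3.15 and 3.01 CPM in CK, at 16.1, 9.47 and 10.3 CPM in LT, and at 3.16, 4.17 and 8.66 CPM in LT+S. All LT libraries lay above all LT+S libraries, and these above all CK libraries, LT+S 1 by a narrow margin over CK 2. It rose 4.41-fold in LT versus CK, a log2 change of 2.14 (SE 0.40, 95% interval 1.23 to 3.05, edgeR adjusted p = 0.00262). In LT+S versus CK the log2 fold change was 0.98 (SE 0.40, interval 0.07 to 1.88), which did not pass (adjusted p = 0.0796), although it did without LT+S 1 (adjusted p = 0.0383) and in DESeq2 (0.0487). With uniconazole the level in the cold was 2.24-fold lower than without, a log2 difference of -1.16 (SE 0.38, interval -2.03 to -0.30), with an unadjusted p of 0.0139 and an adjusted p of 0.513.

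The balance of the 2 CYP90A1 copies within each library does not depend on scaling. LOC106763863 took 7.01%, 9.43% and 7.90% of the counts of both copies in CK, 37.7%, 28.0% and 41.9% in LT, and 14.5%, 18.1% and 24.1% in LT+S. The 3 groups did not overlap, with LT+S between CK and LT. The mean shares were 8.11% ± 1.22 in CK, 35.9% ± 7.14 in LT and 18.9% ± 4.84 in LT+S (SD, n = 3), and each pair of groups gave p = 0.1 in a two-sided exact permutation test, the smallest that 3 against 3 libraries allow (0.1 also after adjustment over 6 such comparisons). How reads matching both copies were counted is not given in the sources used here, so the split between copies of one enzyme is uncertain to that extent.

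**Figure D3:**
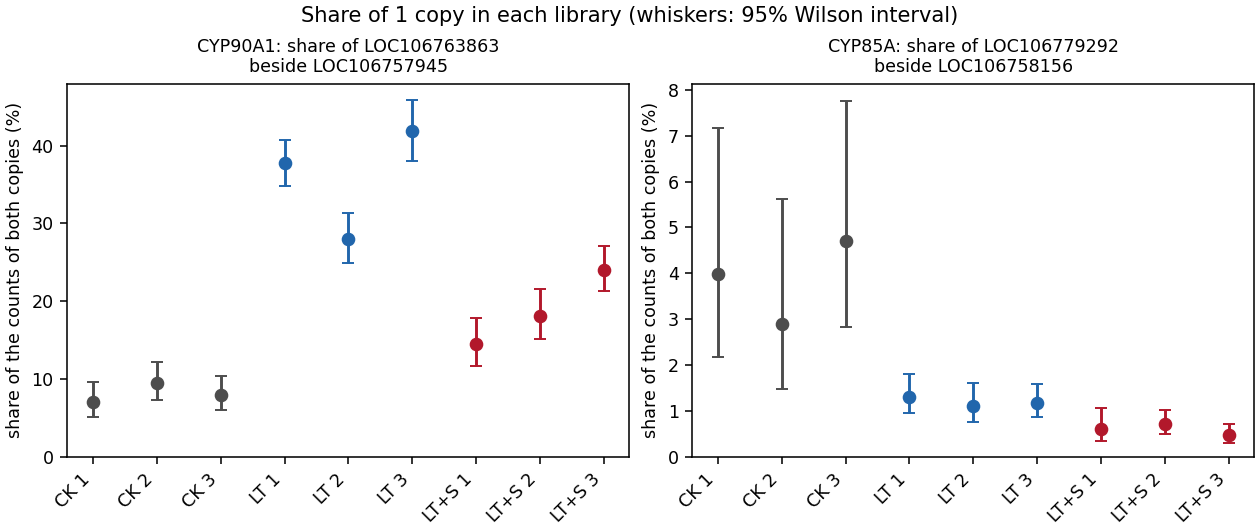
Share of one copy in the summed counts of 2 copies, in percent on axes that start at 0, for CYP90A1 (left) and CYP85A (right) in each of the 9 libraries. Whiskers are 95% Wilson intervals, which cover counting error only. The CYP90A1 share was 28.0% or more in every LT library and 9.43% or less in every CK library.

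CYP90C1 and CYP90D1 hydroxylate the side chain further along the pathway. LOC106768728 (CYP90C1, chromosome 7, 1950986 to 1956820) was at 31.3, 35.95 and 45.8 CPM in CK, at 35.7, 42.6 and 17.2 CPM in LT, and at 27.9, 49.3 and 51.7 CPM in LT+S. The cold groups spread on both sides of CK, LT 3 being the lowest library of all 9. The log2 fold change was -0.24 in LT versus CK (95% interval -1.02 to 0.53, edgeR adjusted p = 0.584), 0.19 in LT+S versus CK (-0.58 to 0.96, 0.687) and 0.43 in LT+S versus LT (-0.34 to 1.204, 0.862). The 2nd CYP90C1 gene, LOC106777471 (chromosome 11, 5996107 to 6001542), had 0 to 6 counts per library, and the CYP90D1 gene LOC106773857 (chromosome 9, 1781155 to 1785896) had 1 to 13. Both were below the filter, and changes in them were not detectable at this depth.

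CYP85A, which carries out the late oxidation to castasterone, had the largest rise of the tested members in both comparisons with CK. LOC106758156 (chromosome 4, 18434625 to 18438895) was at 13.99, 15.95 and 18.5 CPM in CK, at 113.5, 109.6 and 140.9 CPM in LT, and at 82.8, 173 and 177 CPM in LT+S. Every chilled library was far above every CK library, with or without uniconazole. It rose 7.51-fold in LT versus CK, a log2 change of 2.91 (SE 0.29, 95% interval 2.25 to 3.56, edgeR adjusted p = 0.00012), and 8.95-fold in LT+S versus CK, a log2 change of 3.16 (SE 0.29, interval 2.501 to 3.82, adjusted p = 0.000123). LT+S and LT differed by 0.25 (interval -0.35 to 0.85, adjusted p = 0.900), so a difference of more than 0.85 in favour of LT+S lies outside the interval.

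LOC106779292, a CYP85A gene on an unplaced scaffold, was low throughout, at 8 to 41 counts per library. It was at 0.581, 0.476 and 0.917 CPM in CK, at 1.51, 1.23 and 1.67 CPM in LT, and at 0.513, 1.26 and 0.837 CPM in LT+S. The LT libraries lay above all CK libraries, while LT+S overlapped both groups. It rose 2.24-fold in LT versus CK, a log2 change of 1.16 (SE 0.41, 95% interval 0.24 to 2.08, edgeR adjusted p = 0.0427). This call was lost without any one of CK 1 (adjusted p = 0.0952), CK 2 (0.144), LT 1 (0.0923), LT 2 (0.0531), LT 3 (0.103) or LT+S 3 (0.0634). The log2 difference was 0.41 in LT+S versus CK (adjusted p = 0.460) and -0.75 in LT+S versus LT (interval -1.63 to 0.12, adjusted p = 0.766).

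Within the pair of tested CYP85A genes, LOC106758156 held a larger share of the counts in every chilled library than in any CK library. LOC106779292 took 3.98%, 2.90% and 4.71% of their counts in CK, 1.32%, 1.11% and 1.17% in LT, and 0.616%, 0.724% and 0.470% in LT+S. The 3 groups did not overlap, at means of 3.87% ± 0.913, 1.199% ± 0.105 and 0.603% ± 0.128 (SD, n = 3), and every pair again gave p = 0.1, the smallest the exact permutation test allows. The other CYP85A gene, LOC106753400, also on an unplaced scaffold, had no count in any of the 9 libraries, which allows up to 0.0609 CPM in CK, 0.0427 in LT and 0.0422 in LT+S.

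CYP734A1, which inactivates castasterone and brassinolide, rose in the chilled plants that had received uniconazole. LOC106767283 (chromosome 7, 42196013 to 42199609) was at 0.232, 0.714 and 0.982 CPM in CK, at 1.18, 0.956 and 0.570 CPM in LT, and at 1.33, 2.19 and 4.98 CPM in LT+S. All LT+S libraries lay above all others, and LT overlapped CK. It rose 4.41-fold in LT+S versus CK, a log2 change of 2.14 (SE 0.62, 95% interval 0.74 to 3.54, edgeR adjusted p = 0.0220), from 4 to 15 counts in CK libraries and 31 to 119 in LT+S. The call was lost without CK 1 (log2 1.74, adjusted p = 0.0555), without CK 2 (adjusted p = 0.0637) and without LT+S 3 (log2 1.46, adjusted p = 0.0901), so that without any one of these 1 member and not 2 was higher in LT+S than in CK.

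In LT versus CK the log2 fold change of LOC106767283 was 0.49 (interval -0.95 to 1.94, adjusted p = 0.553). Between the chilled groups it was 1.65 in favour of LT+S (SE 0.58, interval 0.33 to 2.97), with an unadjusted p of 0.0200 and an adjusted p of 0.565. The 2nd CYP734A1 member, LOC106753547 (chromosome 2, 23551882 to 23555439), had 1 to 21 counts per library and was not tested. A CYP734A1 gene outside the pathway assignment, LOC106776532, was also looked up by name after the table had been opened. It was at 11.1 ± 3.20 CPM in CK, 18.5 ± 0.918 in LT and 18.0 ± 1.42 in LT+S (SD, n = 3), and rose by 0.74 in LT (edgeR adjusted p = 0.0113) and by 0.70 in LT+S (0.0163) on the log2 scale.

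The member placed by the pathway assignment only, LOC106774369 (chromosome 9, 2735862 to 2738047), is described as CYP75B2, an enzyme of flavonoid synthesis. It was at 23.6, 37.7 and 54.9 CPM in CK, at 14.7, 27.2 and 48.7 CPM in LT, and at 42.4, 28.2 and 21.3 CPM in LT+S. The spread within each group was as wide as the spread between groups. The log2 fold changes of -0.36, -0.34 and 0.02 in LT versus CK, LT+S versus CK and LT+S versus LT did not pass the test (edgeR adjusted p = 0.544, 0.581 and 0.997).

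The steps before and after the family were described from lists of genes chosen by product name. Sterol synthesis, which supplies campesterol, had 25 tested genes among 29, of which 2 were higher and 10 lower in LT than in CK, where 22.8% and 23.7% of all genes were, with a median log2 fold change of -0.45 against 0.01 over all genes. In LT+S versus CK, 4 were higher and 5 lower (19.7% and 21.9% of all genes), with a median of -0.19 against 0.01, and in LT+S versus LT 0 were called by edgeR, 1 being higher and 0 lower before adjustment at p below 0.05 and 1 higher and 0 lower in DESeq2. Of the 25, 21 had a positive and 4 a negative log2 difference in LT+S versus LT, at a median of 0.26 against -0.01 over all genes, of which 9435 of 19304 were positive. The counts in LT+S versus CK rested on single libraries. Without CK 2, 1 was higher and 2 lower, without LT+S 1 likewise 1 and 2, without LT+S 3 these were 2 and 3, without CK 1 the lower genes were 9, and without CK 3 or LT+S 2 they were 2 or 3. In LT versus CK, 4 were higher without CK 1.

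Cycloeucalenol cycloisomerase (LOC106752757), which opens the cyclopropane ring of plant sterols, had the largest fall of the list in LT. It fell from 46.6 ± 9.61 CPM in CK to 8.04 ± 0.901 in LT and 15.5 ± 2.57 in LT+S (SD, n = 3), log2 changes of -2.53 (edgeR adjusted p = 4.42e-05) and -1.58 (0.000291), and LT+S and LT differed by 0.95 (0.192). Methylsterol monooxygenase 1-1 (LOC106769322), which removes a methyl group from the sterol ring, fell likewise, by log2 changes of -2.13 in LT (adjusted p = 0.000675) and -1.74 in LT+S (0.00203). Sterol 14-demethylase (LOC106774110), a P450 and the classical target of azole fungicides in fungi, fell from 39.8 ± 18.1 CPM in CK to 14.6 ± 1.48 in LT and 20.01 ± 3.23 in LT+S, log2 changes of -1.44 (0.00493) and -0.99 (0.0286). In this gene CK 1 was at 21.3 CPM, below CK 2 and CK 3 at 40.6 and 57.6 CPM and below LT+S 3 at 23.3 CPM. Genes that rose included 24-methylenesterol C-methyltransferase 2 (LOC106764655), which acts on the branch towards sitosterol, by 0.72 in LT (0.00627) and 0.60 in LT+S (0.0155). For LT+S versus LT the chosen genes were the cycloisomerase, squalene monooxygenase (LOC106766844), at 0.83 (0.775), and methylsterol monooxygenase 2-2 (LOC106776423), at 0.54 (0.707), and none of these passed the test.

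**Figure D4:**
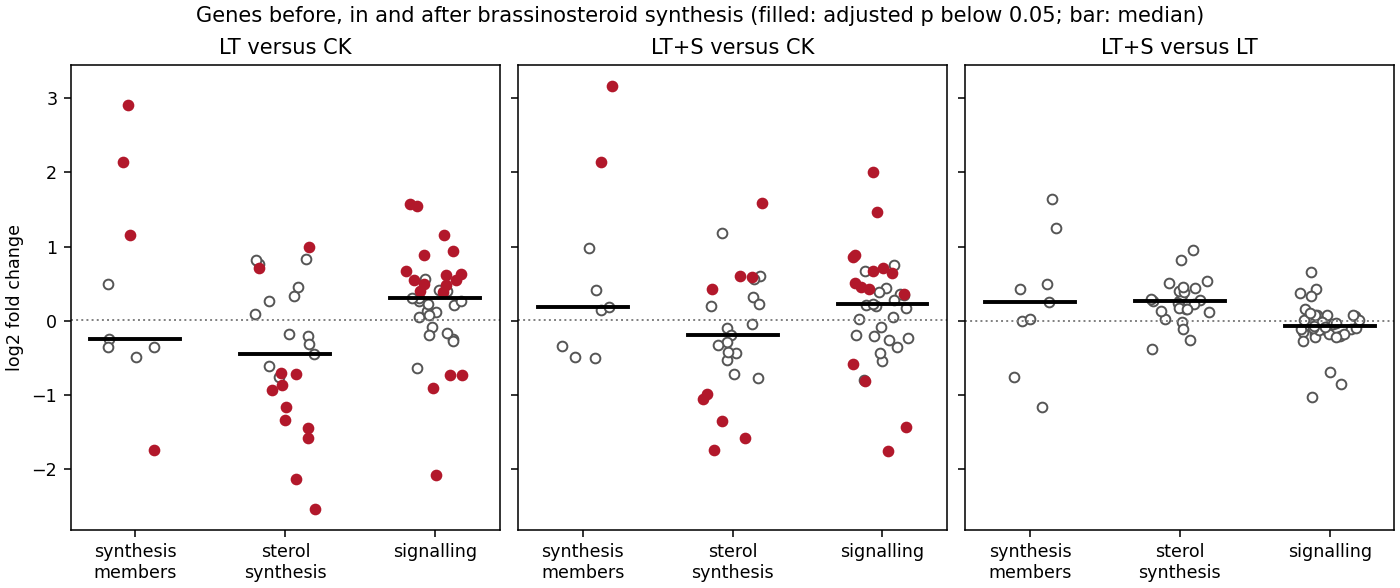
Log2 fold change of each tested gene of the synthesis family (9), of sterol synthesis (25) and of brassinosteroid signalling (37) in LT versus CK, LT+S versus CK and LT+S versus LT, with filled points at an edgeR adjusted p below 0.05 and bars at the median. Medians in LT versus CK were -0.24, -0.45 and 0.30.

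Brassinosteroid perception and signalling had 37 tested genes among 38, of which 14 were higher and 4 lower in LT than in CK (22.8% and 23.7% of all genes), with a median log2 fold change of 0.30 against 0.01 over all genes. In LT+S versus CK, 11 were higher and 4 lower (19.7% and 21.9% of all genes), with a median of 0.23 against 0.01, and without CK 2 these were 7 and 2, the lower genes being 2 also without LT+S 1 or LT+S 2. In LT+S versus LT, 0 were called by edgeR (before adjustment 1 higher and 1 lower at p below 0.05, and 1 and 1 in DESeq2), with a median of -0.07 against -0.01 over all genes. BZR1 (LOC106762857), the transcription factor that represses synthesis genes in Arabidopsis, was at 71.0, 75.9 and 85.1 CPM in CK, at 18.7, 18.3 and 17.8 CPM in LT, and at 32.3, 26.4 and 27.4 CPM in LT+S. The 3 groups did not overlap and their libraries lay close together. It fell in both cold groups, by log2 changes of -2.08 in LT (edgeR adjusted p = 2.11e-05) and -1.43 in LT+S (6.64e-05), and LT+S exceeded LT by 0.65 (unadjusted p = 0.000257, adjusted p = 0.121). Of the 4 other genes of the BZR1 family, none was called lower in the cold. LOC106776642 (BZR1 homolog 1) rose by 0.39 in LT (adjusted p = 0.0183) and was at 0.17 in LT+S versus CK (0.252). Both genes named BRASSINAZOLE-RESISTANT 2 (LOC106762937 and LOC106765162, log2 0.12 and 0.27 in LT) and BES1/BZR1 homolog 4 (LOC106779475, -0.28) passed no test. These 4 were named after their values were seen.

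The kinases that hold BZR1 inactive in Arabidopsis, named shaggy-related protein kinase eta in the table, went the other way. LOC106779810 rose from 7.70 ± 1.08 CPM in CK to 22.4 ± 1.22 in LT and 21.3 ± 2.73 in LT+S (SD, n = 3), log2 changes of 1.54 (edgeR adjusted p = 9.8e-05) and 1.47 (0.000156). LOC106775012, a further kinase of that name, rose by 1.16 (0.000191) and 0.89 (0.000829). BIM1 (LOC106769409), a transcription factor that partners the BZR1 family in Arabidopsis, fell from 136 ± 13.98 CPM in CK to 82.0 ± 29.1 in LT and 40.4 ± 5.18 in LT+S, log2 changes of -0.73 (0.0259) and -1.75 (0.000558). LT+S and LT differed in BIM1 by -1.02 (0.289), which did not pass the test. Both BIM2 genes (LOC106758539 and LOC106779863, -0.08 and 0.08 in LT) passed no test. In LT, BSK1 (LOC106764849) rose by 0.68 (0.00107), BSL3 (LOC106756092) by 0.50 (0.0102) and BRI1-like 2 (LOC106767366) by 1.57 (0.00493). LOC106774250, described as BRI1-associated receptor kinase 1, was lower at -0.91 (0.0102). These genes were named after their values were seen, and the net effect on signalling was not tested.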

How the data were processed

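Leaf mRNA of 9 mung bean libraries (CK, LT, LT+S, 3 pots each) was analysed from the deposited table of whole-number read counts per gene. Per the study's methods the authors trimmed reads with Trimmomatic, aligned them to Vradiata_ver6 with hisat2 and quantified them with htseq-count. The methods also describe transcript quantification with bowtie2 and eXpress, which likewise gave raw read counts. They do not say which route gave the deposited table. The submitters' processing notes also name CASAVA 1.8 and Cufflinks. Strand setting and treatment of reads with several matches are not given in the sources used here. Groups were taken from the sample titles, which number the 3 LT+S libraries as replicates although their treatment labels carry 3 different code numbers for uniconazole.

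Counts were filtered with filterByExpr (minimum count 10), scaled by TMM and tested with edgeR 4.0.16 (R 4.3.3) by the quasi-likelihood F test, two-sided, in 1 fit of all 9 libraries with group as the term. Benjamini-Hochberg adjustment ran over all 19304 tested genes, with calls at an adjusted p below 0.05. SE is the absolute log2 fold change divided by the square root of F. The fit was tested on simulated data first. Alternatives were DESeq2 1.42.0, its size factors in edgeR, the 6 libraries of a comparison alone, no filter, a mean of at least 1 CPM, limma-voom (limma 3.58.1), the replicate number as a block, and each library left out. Positions are from RefSeq's table of the same assembly. Levels were not scaled by gene length, so genes are not compared in level. Replicates of a group differed beyond counting noise.

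Every member is named, and from each list of neighbouring genes at most the 3 with the smallest p in each comparison. Further genes named are those said to be named after their values were seen, and the remaining abscisic acid 8'-hydroxylases. Members, lists and tests were chosen with earlier results of these data known.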

Additional observations from a re-analysis of the deposited data

How the results depend on the processing

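Of 432 refits of the members' fold changes, 407 kept direction and call, 10 lost a call, 4 gained one and 11 changed sign. LOC106758156 kept its calls in all 16 alternatives (log2 2.79 to 3.02 in LT versus CK, 2.99 to 3.44 in LT+S versus CK), as did LOC106778030 (-2.08 to -1.44) and LOC106763863 (1.87 to 2.29) in LT versus CK. All sign changes were in differences that passed no test: LOC106768728 in LT versus CK (0.056 without LT 3), LOC106764341 in LT+S versus CK (-0.11 without CK 1 and -0.05 without LT+S 2, in a range of -0.11 to 0.46 over the libraries left out), and in LT+S versus LT LOC106757945 (0.024 with limma-voom, positive without LT 1, LT 2, LT+S 1 or LT+S 2, in a range of -0.23 to 0.16) and LOC106774369 (negative without LT 1, LT 2 or LT+S 1, in a range of -0.31 to 0.55); the cause was not tested. With the 6 libraries alone, 1 member was lower in LT+S versus CK (LOC106778030, log2 -0.50, adjusted p = 0.0468). DESeq2 raised the higher sterol genes in LT versus CK from 2 to 4 and in LT+S versus LT called 1 member and 1 sterol gene higher, and 1 signalling gene higher and 1 lower. All genes called higher and lower in LT+S versus LT were 2 and 1 in edgeR, 123 and 109 in DESeq2, and 0 and 0 with 6 libraries. Replicate numbers do not pair the pots (same-number correlations -0.30 to 0.27 between groups); the replicate block gave 4 and 2 genes in LT+S versus LT and an adjusted p of 0.0667 for LOC106779292 in LT versus CK. With each library left out, members called higher were 2 to 3 in LT versus CK and 1 to 3 in LT+S versus CK, sterol genes higher 2 to 4 and 1 to 5 and lower 7 to 12 and 2 to 9, signalling genes higher 10 to 15 and 7 to 12 and lower 3 to 5 and 2 to 5, and all genes called in LT+S versus LT 0 to 4 higher and 0 to 3 lower. Depth limits the 5 untested members, which had at most 21 counts in any library.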

Other observations

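Other P450 enzymes that azoles are known to bind were described as a list of 11 genes, 9 of them tested. In LT versus CK, 3 were higher and 3 lower (22.8% and 23.7% of all genes), and in LT+S versus CK 5 were higher and 2 lower (19.7% and 21.9%) by edgeR at an adjusted p below 0.05. Between LT+S and LT, 0 were called in either direction, and before adjustment 3 were higher and 0 lower at p below 0.05 (3.73% and 3.34% of all genes). Abscisic acid 8'-hydroxylases, which break down abscisic acid, made up most of the list and did not move together. LOC106753610 fell from 217 ± 29.3 CPM in CK to 49.5 ± 20.8 CPM in LT and was at 112 ± 8.27 CPM in LT+S (SD, n = 3). Its log2 change was -2.13 in LT (edgeR adjusted p = 0.000382) and -0.95 in LT+S versus CK (adjusted p = 0.0190). LT+S and LT differed by 1.18 (adjusted p = 0.289).

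LOC106767139, described as abscisic acid 8'-hydroxylase CYP707A2, was at 1.199 ± 0.0831 CPM in CK, 2.05 ± 0.656 in LT and 6.57 ± 1.76 in LT+S. It rose by 2.45 in LT+S versus CK on the log2 scale (adjusted p = 0.000493), and its difference of 1.68 between LT+S and LT did not pass (0.127). LOC106755472, also described as CYP707A2, was close to absent in CK at 0.0417 CPM and in LT at 0.161 CPM, and reached 0.973 ± 0.268 CPM in LT+S. It passed the filter on low counts only through its LT+S libraries. It is among the 5 genes of the list counted higher in LT+S versus CK. It is also among the 3 counted higher before adjustment in LT+S versus LT, so both counts include a gene selected by its LT+S level. LOC106761657 rose by 1.39 in LT versus CK (adjusted p = 0.00545) and was at 0.80 in LT+S versus CK (0.0614). Of the remaining tested hydroxylases, LOC106764057 was at -1.30 in LT (0.0262) and -1.11 in LT+S (0.0522) versus CK. LOC106777777 was at 1.67 (0.0141) and 1.97 (0.00760), and LOC106765605 at 0.45 (0.182) and 0.99 (0.0141). Ent-kaurene oxidase (LOC106762922), the step of gibberellin synthesis that uniconazole is known to inhibit, rose from 9.11 ± 1.31 CPM in CK to 16.7 ± 4.62 in LT and 19.7 ± 0.913 in LT+S, log2 changes of 0.87 (adjusted p = 0.00766) and 1.11 (0.00277).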
